A study of Mus musculus with 4 samples.

Results

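Neuronal differentiation and synaptic genes were examined through 9 genes, all of which were listed among the 24873 genes of the deposited table. They were chosen by symbol as markers of 2 stages. Tubb3, Dcx and Stmn2 stand for immature neurons, and Map2, Rbfox3, Snap25, Syt1, Gad1 and Slc17a7 stand for mature neurons. The RNA came from brain cells sorted as CD31+CD45-, from mice with floxed Mgp alleles (Mgp fl/fl) and the tamoxifen-inducible VE-cadherin cre/ERT2 recombinase, which the sample labels describe as tdTomato+ brain cells of the genotype Cdh5cre;Mgpflox/flox. Control mice carried the same alleles and received no tamoxifen, and the tamoxifen group received 5 daily injections of 75 mg/kg that began at an age of 10 weeks, with cells taken on day 9. The recombinase is driven by the VE-cadherin promoter, so the deletion of Mgp, which encodes matrix Gla protein, is directed to endothelial cells. The effect of tamoxifen itself and that of the deletion cannot be told apart, since tamoxifen-treated mice without the floxed allele were not analysed here. Each group had 2 libraries, each from cells pooled from 3 mice.

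Mgp, the targeted gene, had 1094.4 and 1351.7 normalized counts in control libraries 1 and 2 and 945.1 and 909.4 in tamoxifen libraries 1 and 2. Both tamoxifen values were the lower ones, but the log2 fold change of -0.39 (standard error 0.18) did not pass the test (limma, adjusted p = 0.0986), and it was 0.0786 with equal library totals. The values sum all exons of the gene and the floxed exons are not given in the sources used here, so reads from outside the deleted part would still count and the values are a weak check of the labels. By real-time PCR, a different measure, the paper reports that Mgp decreased progressively in such sorted cells after tamoxifen.

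Newborn neurons first build an axon and dendrites and only later assemble synapses. Genes for the growing microtubule skeleton, such as those of doublecortin and stathmin-2, are therefore used early. The machinery of transmitter synthesis, vesicle loading and vesicle fusion is taken here to stand for mature neurons, although its genes need not be limited to them. Most adult brain neurons are mature, and Dcx is best known there from migrating neuroblasts and newborn neurons. In the sequenced cells, endothelial markers were abundant in the control libraries and fell in the tamoxifen libraries, with 10 of 10 markers called lower, against 16% of all tested genes (Pecam1, the gene of CD31, had 83681 and 88796 normalized counts in control libraries 1 and 2 and 15987 and 8973 in tamoxifen libraries 1 and 2). The libraries held between 35387438 and 49799321 reads on genes. A normalized count is a read count divided by the factor of its library, and a count of 0 allows up to 3 reads, or 2.16 to 4.11 normalized counts. Genes were called at an adjusted p under 0.05 with an absolute log2 fold change over 1, by limma with Benjamini-Hochberg adjustment over the 20485 genes that averaged 10 or more normalized counts. Fold changes are on the log2(normalized count + 1) scale. For a single gene, 2 libraries per group allow an exact permutation p (two-sided) of 0.3333 at the least, and limma therefore borrows its estimate of the spread from all genes. In RNA from many cells, fewer cells of a type and less RNA per cell cannot be told apart.

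All 3 immature genes and 4 of 6 mature genes were called higher in the tamoxifen libraries, and none was called lower. Over all tested genes 28.6% were called higher and 16% lower. The mature genes Snap25 and Syt1 were not called, and their groups overlapped. The median log2 fold change was 4.76 for the immature genes and 2.704 for the mature genes, against 0.05 for all tested genes. This gives a difference of 2.06 between the sets. The sets were not cleanly separated. Tubb3 and Dcx lay above all mature genes, but Gad1 (3.55), Rbfox3 (3.51) and Map2 (3.24) were not below Stmn2 (3.19). Slc17a7 (2.17), Snap25 (-0.08) and Syt1 (0.22) were below it. Both tamoxifen libraries lay above both control libraries for 7 of 9 genes, and this held for 43.1% of all tested genes.

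The start regions of 2 genes that moved together, 1 further called gene and 1 gene that was not called are shown as the stretch in which transcription begins. RefSeq windows of 300 bases (250 before and 50 from the start site, table build GRCm38.p6) were found for 7 of the 9 genes and placed on GRCm39 by exact match. Stmn2 and Snap25 had no entry. Each is printed 5′ to 3′ on the strand of its gene, and capitals mark every match, on either strand, to 7 motifs, namely the E-boxes CAGCTG and CAGATG, the left arm TTCAGCACC and right arm GGACAG of RE1 (the element bound by the repressor REST), the GC box GGGCGG, the TATA box TATAAA and the CCAAT box. None of these letters contains another, although neighbouring GC boxes can overlap.
Tubb3, chr8:124138042-124138341, plus strand: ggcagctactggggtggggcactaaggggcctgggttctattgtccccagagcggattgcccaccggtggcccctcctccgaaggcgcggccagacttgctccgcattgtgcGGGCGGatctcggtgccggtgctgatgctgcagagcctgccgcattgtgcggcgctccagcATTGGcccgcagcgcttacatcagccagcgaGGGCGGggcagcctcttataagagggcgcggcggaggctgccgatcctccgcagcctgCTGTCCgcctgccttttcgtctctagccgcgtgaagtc
Dcx, chrX:142716071-142716370, minus strand: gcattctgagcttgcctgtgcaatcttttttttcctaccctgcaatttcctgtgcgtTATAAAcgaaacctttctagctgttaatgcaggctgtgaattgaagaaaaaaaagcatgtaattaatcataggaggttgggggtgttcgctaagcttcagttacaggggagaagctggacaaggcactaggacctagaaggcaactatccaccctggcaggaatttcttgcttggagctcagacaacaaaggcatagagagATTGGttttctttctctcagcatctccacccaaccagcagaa
Gad1, chr2:70392223-70392522, plus strand: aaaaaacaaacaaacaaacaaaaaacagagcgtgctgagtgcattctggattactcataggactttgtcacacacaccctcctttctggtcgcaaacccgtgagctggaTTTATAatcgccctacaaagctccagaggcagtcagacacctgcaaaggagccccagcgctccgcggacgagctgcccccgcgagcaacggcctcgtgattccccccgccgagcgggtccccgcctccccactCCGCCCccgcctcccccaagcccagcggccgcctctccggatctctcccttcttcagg
Syt1, chr10:108846787-108847086, minus strand: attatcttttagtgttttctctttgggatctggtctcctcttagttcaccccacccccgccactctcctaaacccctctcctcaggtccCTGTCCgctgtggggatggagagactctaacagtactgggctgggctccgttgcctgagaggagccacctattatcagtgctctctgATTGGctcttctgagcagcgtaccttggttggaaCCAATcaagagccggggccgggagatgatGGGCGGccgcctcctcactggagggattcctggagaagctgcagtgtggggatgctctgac

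The Tubb3 window held 26 CpG dinucleotides and the Dcx window 3, against a median of 7 over 32851 windows of the same length, although the fold changes of both genes were alike. Among the other windows, Map2 had 37 CpG, Gad1 21, Slc17a7 13 and Rbfox3 4, and the start sites of Syt1 had 6 and 8. GC boxes were found in 5 of the 9 windows of these 7 genes and in 35.7% of all windows. The CCAAT letters were found in 5 windows (37.4% of all) and TATAAA in 3 (13.6% of all), 2 of which are overlapping windows of Dcx. The right arm of RE1 was found in 4 windows (22.2% of all), namely those of Tubb3, Map2, Slc17a7 and Syt1, and the left arm in none (0.371% of all). CAGCTG was found in 1 window, of Syt1 (16.3% of all), and CAGATG in none (17.2% of all). A match is a description of letters only.

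Among the immature genes, Tubb3 encodes class III beta-tubulin, a neuronal subunit of microtubules (chromosome 8 from 124138163 to 124150092, plus strand, GRCm39). It had 156.1 and 177.7 normalized counts in control libraries 1 and 2 and 4149.8 and 6497 in tamoxifen libraries 1 and 2. The groups did not overlap, and tamoxifen library 2 was the highest. By limma the change was 4.95 on the log2 scale (standard error 0.24, adjusted p = 8.61e-06), the largest among the 9 genes.

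Dcx encodes doublecortin, a microtubule-binding protein of migrating neurons (chromosome X from 142638838 to 142716307, minus strand). Controls 1 and 2 gave 219.2 and 196.5 normalized counts, and tamoxifen libraries 1 and 2 gave 4144 and 7721. Both control libraries were close to each other, and the tamoxifen libraries differed by 1.86 times. The limma fit gave a log2 fold change of 4.76 with a standard error of 0.28 (adjusted p = 1.72e-05).

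Stmn2 encodes stathmin-2, a regulator of tubulin assembly in growing axons (chromosome 3 from 8574151 to 8626667, plus strand). Its normalized counts were 471.2 and 490.6 in control libraries 1 and 2 and 3975 and 4837 after tamoxifen, the closest pair of tamoxifen values among the immature genes. This was a log2 fold change of 3.19 (limma, standard error 0.17, adjusted p = 1.22e-05). Its control level was the highest of the 3 and its change the smallest, and all 3 genes had 3975 or more in every tamoxifen library.

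**Figure D1:**
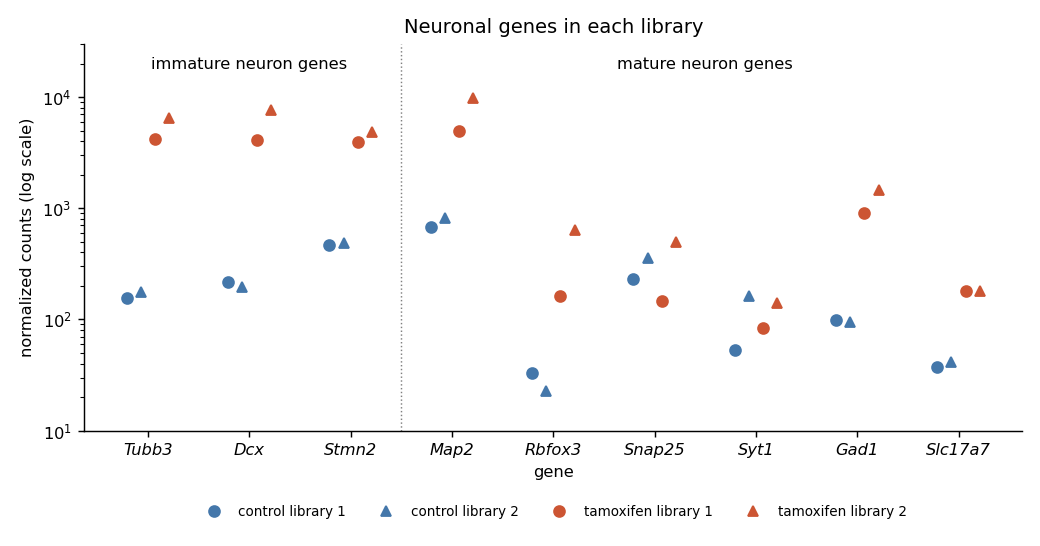
Normalized counts (log axis) of the 9 genes in each library. Circles are library 1 and triangles library 2 of the control (blue) and tamoxifen (red) groups. The tamoxifen libraries sit above the control libraries for all genes except Snap25 and Syt1, whose 4 values are interleaved.

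Among the mature genes, Map2 encodes a microtubule-associated protein of dendrites (chromosome 1 from 66214327 to 66481746, plus strand). Controls 1 and 2 gave 671.2 and 808.5 normalized counts, and tamoxifen libraries 1 and 2 gave 4957 and 9732. It was the most abundant of the 9 genes in every library when length is ignored. By limma the change was 3.24 on the log2 scale (standard error 0.30, adjusted p = 9.77e-05).

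Rbfox3 encodes NeuN, a splicing factor found in the nuclei of most mature neurons (chromosome 11 from 118380442 to 118802423, minus strand). Its normalized counts were 32.87 and 22.53 in control libraries 1 and 2 and 161.5 and 635.5 after tamoxifen. All control values were below all tamoxifen values, but tamoxifen library 2 had 3.94 times the value of tamoxifen library 1, the widest gap within a group among the 9 genes. The limma fit gave a log2 fold change of 3.51 with a standard error of 0.65 (adjusted p = 0.00253). Without tamoxifen library 2 it was 2.52 and was not called (limma, adjusted p = 0.0694).

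Gad1 encodes the glutamate decarboxylase that makes GABA (chromosome 2 from 70383416 to 70432372, plus strand). Controls 1 and 2 gave 98.62 and 95.12 normalized counts, and tamoxifen libraries 1 and 2 gave 900.6 and 1464.4. The control libraries were nearly equal and the groups lay far apart. This was a log2 fold change of 3.55 (limma, standard error 0.30, adjusted p = 7.19e-05). A processed copy, Gad1-ps, is listed with 0, 3.75, 31.43 and 25.16 normalized counts in the same order, and reads may be shared between the copies.

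Slc17a7 encodes VGLUT1, which loads glutamate into synaptic vesicles (chromosome 7 from 44813305 to 44825644, plus strand). Its normalized counts were 36.98 and 41.30 in control libraries 1 and 2 and 178.8 and 180.4 after tamoxifen, so that libraries within each group were nearly equal. By limma the change was 2.17 on the log2 scale (standard error 0.41, adjusted p = 0.00271), the smallest of the 7 called genes. It was not called after quantile normalization (1.07, limma, adjusted p = 0.0515) or without tamoxifen library 1 (2.18, limma, adjusted p = 0.0659) or tamoxifen library 2 (2.165, limma, adjusted p = 0.0704).

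Snap25 encodes a SNARE protein that drives fusion of synaptic vesicles and of hormone granules (chromosome 2 from 136533580 to 136624362, plus strand). Controls 1 and 2 gave 228.7 and 356.7 normalized counts, and tamoxifen libraries 1 and 2 gave 147.4 and 496.8. The tamoxifen libraries held both the lowest and the highest value. The log2 fold change was -0.08 with a 95% interval from -1.34 to 1.18 (limma, adjusted p = 0.911). The sign turned with the scaling, to 0.39 with equal library totals and to 0.14 with edgeR.

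Syt1 encodes synaptotagmin-1, the calcium sensor of fast transmitter release (chromosome 10 from 108333505 to 108846856, minus strand). Its normalized counts were 53.42 and 162.7 in control libraries 1 and 2 and 83.45 and 141.6 after tamoxifen. Here the control libraries held both extremes. The log2 fold change was 0.22 with a 95% interval from -1.16 to 1.59 (limma, adjusted p = 0.768), and it was -0.87 after quantile normalization. The intervals of Snap25 and Syt1 reach beyond a log2 fold change of 1, so changes of that size lie within them.

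**Figure D2:**
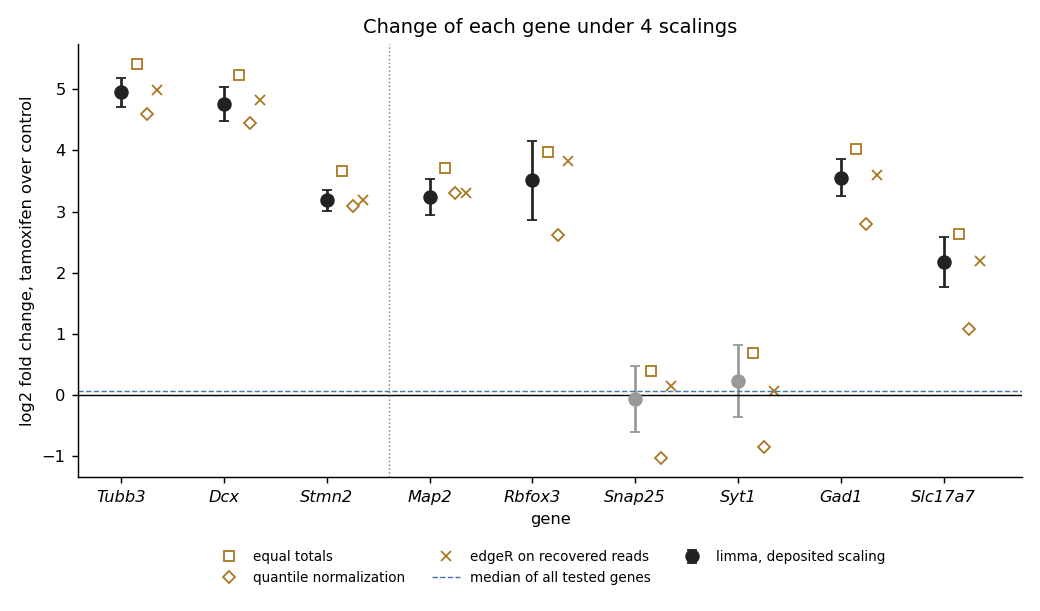
Log2 fold change of each gene with its standard error from limma (filled circles, grey where not called), beside the values with equal library totals, quantile normalization and edgeR on recovered reads. The immature genes left of the dotted line lie between 3.08 and 5.42 under all 4 scalings, whereas Snap25 and Syt1 change sign.

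For comparison between genes, normalized counts were divided by the length of the canonical GENCODE transcript. Per kilobase, the control means followed the order Stmn2 (224.8), Snap25 (128.0), Map2 (76.2), Tubb3 (52.1), Gad1 (23.3), Dcx (22.9), Syt1 (22.7), Slc17a7 (12.9) and Rbfox3 (6.96). In the tamoxifen libraries the order was Stmn2 (2060.0), Tubb3 (1661), Map2 (757), Dcx (654), Gad1 (285), Snap25 (140.8), Rbfox3 (100.2), Slc17a7 (59.0) and Syt1 (23.6). Snap25 was thus in the second place of 9 in the control libraries and in the sixth place in the tamoxifen libraries. Not all neighbours in these orders separated. In the control libraries the per kilobase values of Gad1, Dcx and Syt1 overlapped, as did those of Syt1 and Slc17a7. In the tamoxifen libraries they overlapped between Stmn2 and Tubb3, between Map2 and Dcx, between Gad1 and Snap25, between Snap25 and Rbfox3, and between Rbfox3 and Slc17a7.

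Ratios within a library, taken after adding 1 to each normalized count, depend little on how libraries are scaled. Of the 18 pairs of an immature and a mature gene, the ratio of immature to mature exceeded both control values in both tamoxifen libraries for 15 pairs, lay below them for 1 and overlapped for 2. All 12 pairs with Tubb3 or Dcx were among the 15. The log2 ratio of Tubb3 to Map2 was -2.10 and -2.18 in controls against -0.26 and -0.58 with tamoxifen, and that of Tubb3 to Snap25 was -0.55 and -1.001 against 4.81 and 3.71. The pairs outside the 15 were those of Stmn2 with Map2, Rbfox3 and Gad1. The log2 ratio of Stmn2 to Map2 was -0.51 and -0.72 in controls against -0.32 and -1.01 with tamoxifen, and its ratio to Gad1 was 2.245 and 2.355 against 2.14 and 1.72. The pairs share genes and libraries and are a description with no test.

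The transmitter genes also moved unequally. The log2 ratio of Gad1 to Slc17a7 was 1.39 and 1.18 in control libraries 1 and 2 and 2.33 and 3.01 in tamoxifen libraries 1 and 2. Gad2, the second glutamate decarboxylase, measured 32.87 and 36.30 normalized counts in controls against 632.9 and 1069.0 with tamoxifen, with a log2 fold change of 4.53 (limma, adjusted p = 6.44e-05). Of the other vesicular glutamate transporters, Slc17a6 (VGLUT2) was called higher with 1.67 (limma, adjusted p = 0.0381) and Slc17a8 (VGLUT3) was not called (0.37). None of the 3 transporters was called without tamoxifen library 1 or 2 or after quantile normalization, where Slc17a6 had 0.62.

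Wider lists of neuronal genes were compared next (the plot of wider neuronal gene lists shows each gene). Of 30 further genes of immature neurons, 26 were called higher and none lower, against 28.6% and 16% of all tested genes. The median log2 fold change was 4.08. Igfbpl1, a gene of newborn neurons, rose from 58.90 and 48.81 to 1759 and 3495 normalized counts (log2 fold change 5.51, limma, adjusted p = 2.34e-05). Nhlh2, a neuroblast transcription factor, had 0 reads in both control libraries and 86.7 and 424.1 normalized counts in the tamoxifen libraries. The fold of the group means was at least 64.96 against 3 reads per control library, and the tamoxifen libraries differed widely. Nhlh1, a relative of Nhlh2, rose with a log2 fold change of 5.58 (4.40 and not called without tamoxifen library 2). Both genes averaged under 10 normalized counts in controls and passed the filter only through the tamoxifen group. Their changes, and the count and median of this list, are therefore a description. With the filter at 100, 25 of the 29 genes left were called higher, with a median of 4.11. The most abundant genes of the list behaved differently from each other. Tuba1a, an alpha-tubulin that many cells use, measured 14453 and 17297 normalized counts in controls against 11664 and 15929 with tamoxifen, and Sox4, a transcription factor of many progenitors, had a log2 fold change of 0.88, while Cd24a, a surface glycoprotein, was called higher with 3.63.

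Genes of interneuron neuroblasts, mostly DLX and SP transcription factors, were called higher for 7 of 8, against 28.6% of all tested genes, with a median of 4.63. Dlx2 rose from 63.01 and 38.80 to 1433.9 and 2492 normalized counts, and Dlx1 had a log2 fold change of 4.92. Lhx6, a factor of interneurons from the medial ganglionic eminence, was the exception, with 263.0 and 252.8 in controls against 318.6 and 220.7 with tamoxifen.

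The GABA neuron list had 5 of 6 tested genes called higher and none lower, against 28.6% and 16% of all tested genes. Its median was 4.68. Of the 2 genes below the filter, Sst had no reads in controls and 16 and 13 with tamoxifen, whereas Vip had 9 and 7 reads in controls and 0 with tamoxifen. With no filter 6 of the 8 genes were called higher and 1 lower. Slc32a1 and Pvalb, with control means of 4.56 and 7.18 normalized counts, passed the filter only through the tamoxifen group. The count and median of this list are therefore a description. Slc32a1, which loads GABA into vesicles, rose from 4.11 and 5.01 to 147.4 and 212.8 normalized counts, and Npy (6.33) and Pvalb (4.83), which mark interneuron subtypes, were called as well, Npy only with both tamoxifen libraries in the fit (limma, adjusted p = 0.0574 and 0.0763 without tamoxifen library 1 and 2). The glutamate neuron list had 9 of 10 genes called higher, against 28.6% of all tested genes. Its median was 4.08, or 3.02 with Tbr1 and Neurod6, which had 0 reads in both control libraries, set to their bounds. Genes such as Tbr1 and Neurod2 passed the filter on low values only through the tamoxifen group, so this count and median are a description. With a pseudocount of 5 the median was 2.49, and with the filter at 100 it was 2.58 over the 3 genes left, all called higher. Tbr1, a factor of deep cortical neurons, had only 42.27 and 43.85 normalized counts in the tamoxifen libraries (fold of the group means at least 10.95), and Neurod2 44.44 and 211.4. Without tamoxifen library 1 or 2, 3 genes of the glutamate list were called in each case, of 9 and 8 tested, and Neurod2 was not (limma, adjusted p = 0.0625 and 0.129).

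Of 20 further genes of mature neurons, 13 were called higher and 1 lower, against 28.6% and 16% of all tested genes. The median was 3.09. Genes low in controls could pass the filter through the tamoxifen group, so this count and median are a description. The neurofilament genes Nefl (4.09) and Nefm (4.62) and the neuronal noncoding RNA Snhg11 (5.17) had the largest changes. Mapt, the gene of tau, rose from 232.9 and 281.6 to 1907.5 and 2727.5 normalized counts. Meg3 (0.24) and Uchl1 (0.59), the other most abundant genes, were not called. The gene called lower was Nrgn, which encodes the calmodulin-binding protein neurogranin, with 1219 and 971 normalized counts in controls against 364.2 and 225.7 with tamoxifen. It is named although the rule for naming did not select it, because it was the single gene of its list that fell.

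Synaptic genes were divided into postsynaptic and presynaptic lists. Of 21 tested postsynaptic genes, 14 were called higher and 1 lower, against 28.6% and 16% of all tested genes, with a median of 2.47. The AMPA receptor subunit genes Gria3 (5.48) and Gria2 (3.90), the NMDA receptor gene Grin2b (4.53), the GABA receptor gene Gabrb2 (4.63) and Nlgn2 (1.97), the gene of an adhesion protein of inhibitory synapses, were called higher. Gabrb2 averaged 4.62 normalized counts in controls and passed the filter only through the tamoxifen group, so its call is a description. Shank3, a scaffold gene, fell from 21997 and 19601 to 3582 and 2238 normalized counts. Without tamoxifen library 2 the median was 2.05, and Grin2b (4.02) was not called. Most of the genes called higher in this list were not called in that fit. It leaves 1 library in the tamoxifen group, and fewer genes were called in it over all tested genes.

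Of the 20 presynaptic genes, which did not include Snap25 or Syt1, 8 were called higher and 1 lower, and the median was 0.90. The share called higher, 8 of 20, is the nearest of these lists to the 28.6% of all tested genes. Stx1a, the syntaxin partner of SNAP25, was called lower and fell from 4289 and 3727 to 1224.7 and 892.2 normalized counts. Stx1a (-1.93), Shank3 (-2.87) and Nrgn (-1.92), the genes called lower in these lists and the mature list, were all more abundant in controls than Snap25. The endothelial markers fell as well, with a median of -2.88. A link between these falls was not tested. Vamp2, the vesicle SNARE, had a log2 fold change of -0.71, which did not pass the size limit. The largest rises were those of Syngr3 (3.54), Cplx1 (3.12) and Bsn (2.83), which encode a vesicle membrane protein, a regulator of SNARE complexes and an active zone scaffold. Without tamoxifen library 2 the median was 0.76, and Cplx1 (2.57) and Bsn (2.48) kept their direction but were not called. Most of the genes called higher in this list were not called in that fit. It leaves 1 library in the tamoxifen group, and fewer genes were called in it over all tested genes as well. With equal library totals 13 genes were called higher, and after quantile normalization 5.

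**Figure D3:**
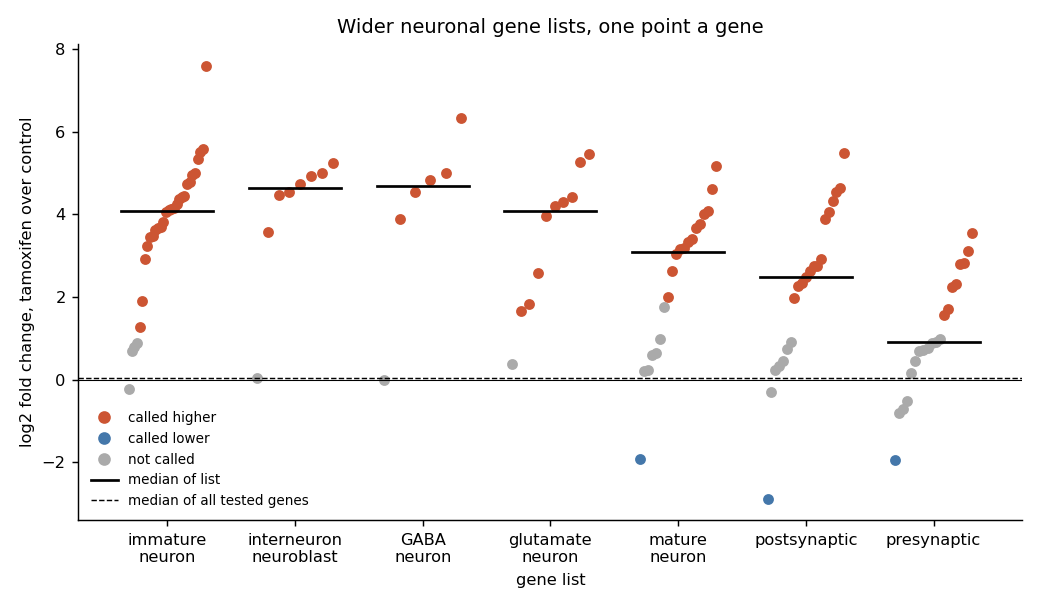
Log2 fold change (tamoxifen over control) of each tested gene in 7 wider lists, ordered by value within a list. Colours give the limma call, solid bars the median of a list and the dashed line the median of all tested genes (0.05). The medians run from 4.68 for GABA neuron genes to 0.90 for presynaptic genes.

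Several of the 9 genes belong to families with broadly used members, and the change was compared within these families. Among the beta-tubulins, Tubb3 and Tubb2b (4.04), another tubulin of developing neurons, had the largest changes. Of the 8 genes 4 were called higher, against 28.6% of all tested genes. The count was 3 with an untrended variance, 6 with equal library totals and 5 after quantile normalization. It was lower without tamoxifen library 1 or 2. Tubb5, the most abundant, measured 28471 and 34997 normalized counts in controls against 64403 and 57891 with tamoxifen, a log2 fold change of 0.95 that did not pass the size limit. The log2 ratio of Tubb3 to Tubb5 was -7.50 and -7.61 in controls against -3.96 and -3.155 with tamoxifen. Beta-tubulins are close in coding sequence, and how reads that match several genes were counted is not given in the sources used here.

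Of the stathmins, Stmn2, Stmn3 (3.44) and Stmn4 (5.01) were called higher (Stmn3 not without tamoxifen library 1 or 2, limma, adjusted p = 0.0668 and 0.109), whereas Stmn1, which dividing cells also use, measured 2834 and 3262 normalized counts in controls against 4230.0 and 5780 with tamoxifen (0.70, below the size limit). All 4 doublecortin family genes were called higher, from Dclk2 (1.65) to Dcx, but 3 of the 4 were called with no filter and after quantile normalization. Fewer than 4 were called without control library 1, tamoxifen library 1 or tamoxifen library 2. For both families the share called higher over all tested genes was 28.6%. Map4, the microtubule-associated protein of most other cells, had a log2 fold change of -0.86, and the log2 ratio of Map2 to Map4 went from -5.59 and -5.46 to -2.05 and -0.80. Rbfox2, the broadly used relative of Rbfox3, measured 8754 and 7598 normalized counts in controls against 8771 and 8938 with tamoxifen (0.12).

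In the SNAP25 family none of 4 genes was called, and the median was -0.36, or 0.11 with equal library totals. By limma without the size limit, Snap23, Snap29 and Snap47 had adjusted p-values of 0.0119, 0.0034 and 0.0434, with log2 fold changes of -0.64, -0.76 and 0.45. Snap23, which serves fusion in most cells, measured 3294 and 2700 normalized counts in controls against 1979 and 1862 with tamoxifen, and the log2 ratio of Snap25 to Snap23 overlapped between the groups. Of 16 synaptotagmins, 7 were called higher and 3 lower, against 28.6% and 16% of all tested genes. The count called lower is near that share. Syt14 (4.72), Syt9 (4.42) and Syt11 (2.73) rose, while Syt7 (-1.91), Syt4 (-1.97) and Syt15 (-2.24) fell. Without tamoxifen library 2, 4 were called higher and 1 lower, and Syt14, Syt15 and Syt4 were not called (limma, adjusted p = 0.0609, 0.0557 and 0.0624), and Syt4 was not called without tamoxifen library 1 either (limma, adjusted p = 0.126). The log2 ratio of Syt1 to Syt11 was -3.91 and -2.76 in controls against -5.68 and -6.01 with tamoxifen.

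**Figure D4:**
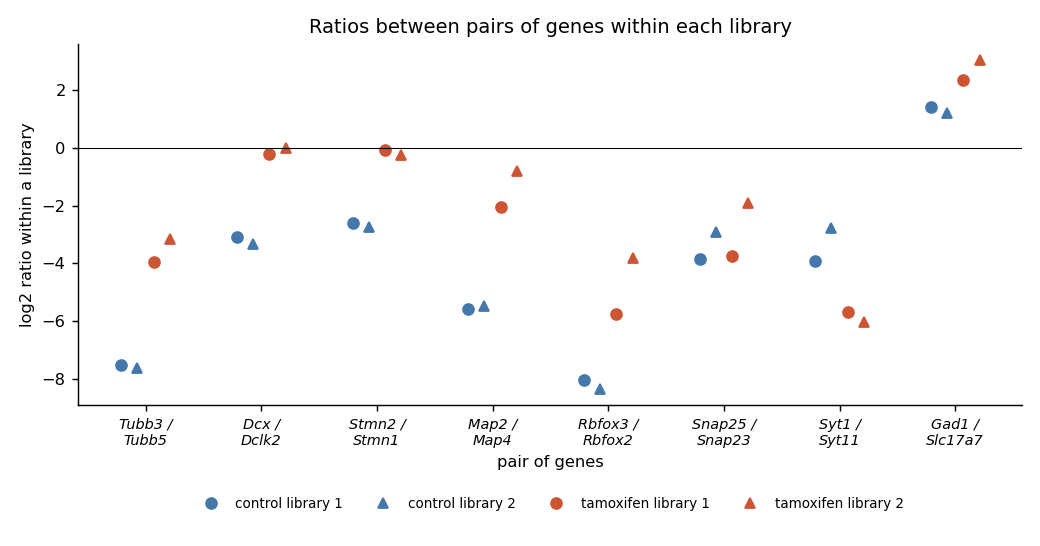
Log2 ratios between pairs of genes within each library, for 7 members against a broadly used or more abundant relative and for Gad1 against Slc17a7. Circles are library 1 and triangles library 2 of control (blue) and tamoxifen (red). The tamoxifen ratios are higher for 6 pairs, lower for Syt1 to Syt11 and interleaved for Snap25 to Snap23.

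The repressor REST keeps many neuronal genes silent in other cells, and RNA-binding proteins of the NOVA, PTB and SRRM families set neuronal splicing. Rest itself was called higher, with 2918.9 and 2912.5 normalized counts in controls against 6442 and 5414 with tamoxifen (log2 fold change 1.018, limma, adjusted p = 0.00103), a value at the size limit, and was not called without tamoxifen library 1 (0.89). The neuronal splicing factor genes Srrm4 (3.73) and Nova1 (4.24) and the corepressor gene Rcor2 (5.15) were called higher. Nova2, which is also known from blood vessels, fell from 10850 and 9701 to 3017 and 3216. Ptbp1, which blocks neuronal exons in other cells, had 11206 and 12768 in controls against 13624 and 10522 with tamoxifen (0.00).

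Markers of other cells moved with the tamoxifen group and are given for the whole lists. The counts called stand against 28.6% called higher and 16% called lower over all tested genes. The summed endothelial markers were 896332 and 947084 normalized counts in control libraries 1 and 2 and 169900 and 89389 in tamoxifen libraries 1 and 2. The astrocyte markers (9 of 9 called higher) summed to 30114 and 35947 against 155672 and 323772, and the oligodendrocyte precursor markers (6 of 8 called higher, 1 lower) to 5541 and 7512 against 27779 and 62603. Oligodendrocyte markers (6 of 7 tested) and choroid plexus and ependymal markers (5 of 6) were also called higher, or 2 and 1 of them without tamoxifen library 2, and 3 oligodendrocyte markers were called without tamoxifen library 1. Pluripotency markers (7 of 7 called higher) went from 69.9 and 95.1 to 47756 and 37401. With such low control sums, genes of this list and of the peripheral neuron list could pass the filter through the tamoxifen group. Both counts are therefore a description. Peripheral neuron markers (2 of 5 tested called higher, against 28.6% of all tested genes, and fewer without tamoxifen library 1) summed to 80.8 and 83.9 against 477 and 380, with Phox2a at 0 in both control libraries. Their part in the changes of the neuronal genes was not tested.

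Within the tamoxifen group, tamoxifen library 2 exceeded tamoxifen library 1 by 1.22 to 3.94 times for 8 of the 9 genes and by 1.01 times for Slc17a7, against a median of 0.945 over all tested genes. In the same direction, the astrocyte sum was 2.08 times, the oligodendrocyte precursor sum 2.25 times and the choroid plexus and ependymal sum 4.90 times as high in tamoxifen library 2. The neuroendocrine granule and pituitary sums were 1.71 and 1.07 times as high. In the other direction, the endothelial sum was 0.526 times and the pluripotency sum 0.783 times as high. The log2 ratio of Dcx to Olig2, a gene of oligodendrocyte precursors, was 2.955 and 2.995 in controls against 3.62 and 3.61 with tamoxifen. Its log2 ratio to Pdgfra, another gene of these precursors, was -0.31 and -0.59 in controls against 0.15 and 1.18 with tamoxifen, and so differed more between the tamoxifen libraries. Within the control group, control library 2 exceeded control library 1 by 3.05 times for Syt1 and 1.56 times for Snap25, and the summed pituitary markers were 13482 and 37721, or 2.80 times as high. The pituitary markers were called lower for 7 of 8 tested genes, against 16% of all tested genes, and summed to 171 and 183 in the tamoxifen libraries. Lhb, a hormone subunit gene named here after its value was seen, was the exception and was called higher (4.85, limma, adjusted p = 0.00193), but not without tamoxifen library 1 or 2. Genes of hormone granules that neurons share with pituitary cells were divided. Scg3 (3.03) was the 1 of 10 called higher, against 28.6% of all tested genes. Resp18 (-4.80), Scg2 (-3.58) and Chgb (-2.43) were among the 5 of 10 called lower, against 16% of all tested genes. The count called lower was 3 without control library 2, 1 without tamoxifen library 1 and 2 without tamoxifen library 2, where Scg3 was not called (limma, adjusted p = 0.0526), and Chgb (limma, adjusted p = 0.077) and Resp18 (limma, adjusted p = 0.0672) were not called without tamoxifen library 1. Their part in the overlap of Snap25 and Syt1 was not tested.

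**Figure D5:**
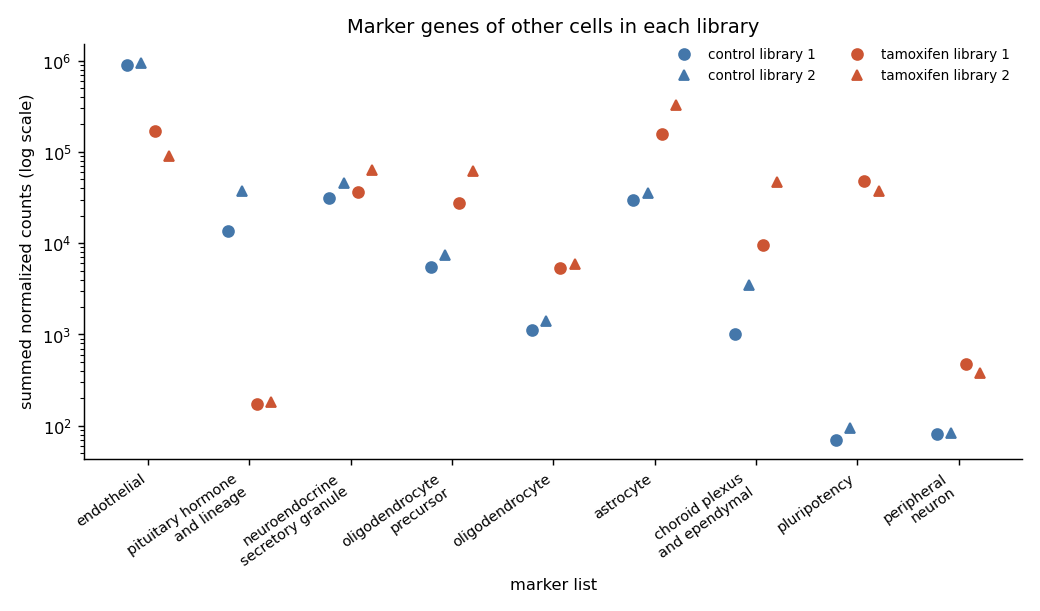
Summed normalized counts (log axis) of 9 marker lists in each library, with circles for library 1 and triangles for library 2 of control (blue) and tamoxifen (red). Endothelial and pituitary sums are lower in the tamoxifen libraries, neuroendocrine granule sums overlap and the other sums are higher.

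Annotated genes overlap exons of some members. Gad1os shares 99 exonic bases with Gad1 and Gm10558 shares 124 with Map2, on the opposite strand, and both are listed with at most 26.6 normalized counts in any library. Gm72144 shares 311 exonic bases with Slc17a7 and Gm32659 shares 11 with Snap25, also on the opposite strand, and no value is given for them here. The kit marks strand, but the strand setting of the counting is not given in the sources used here, so reads from the other strand could be part of these values.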

How the data were processed

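RNA was sequenced from CD31+CD45- cerebral cells, with 2 control and 2 tamoxifen libraries, each from a pool of 3 mice. Per the paper's methods and the submitters' processing notes, libraries were made with a stranded mRNA kit, reads were aligned with STAR 2.7.10a to GRCm39, and DESeq2 1.36.0 normalized the counts after genes with low counts had been removed. The annotation release, the limit for low counts and the strand setting are not given in the sources used here. The deposited signal values are therefore normalized read counts, scaled by the authors with 1 factor per library. Dividing by the value of 1 read gave whole numbers for 100% of values (within 0.01 of a read), so reads were recovered for the count tests. The 2 columns marked A were taken as the tamoxifen group because the 2 columns marked C match the control titles and the letter A is not explained in the table.

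All 24873 genes entered, and 20485 with a mean of at least 10 were tested with limma 3.58.1 (R 4.3.3) on log2(normalized count + 1), with a trended variance, no covariate and Benjamini-Hochberg adjustment over all tested genes. That mean spans both groups, so genes low in controls could pass through the tamoxifen group alone. p-values measure the spread between these libraries, each of which averages 3 mice. Reads on genes ranged from 35387438 to 49799321, and floors of 3 reads cover counting error only, whereas the 95% intervals come from limma and cover the spread between libraries. The 9 genes and all 28 lists were chosen with earlier results of these data known. The members were all named. From each list up to 6 genes were named, the 3 most abundant and the 3 with the largest change, and any gene of the paralogue families and the REST list could be named, but some of these genes are not reported here. Gene positions came from GENCODE M39 (239 of 240 list genes matched). The alternatives changed the pseudocount (0.5 and 5), dropped the filter or raised it to 100, and used equal library totals, quantile normalization, an untrended variance, a replicate block, the adjusted p alone, each library left out, and count tests of the recovered reads with DESeq2 1.42.0 and with edgeR 4.0.16. The test was checked on simulated data with few changed genes and the same spread for all genes. That setting does not cover the wide shift between these groups.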

Additional observations from a re-analysis of the deposited data

How the results depend on the processing

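The difference between the immature and mature medians (2.06) lay between 1.93 and 2.61 under the 14 alternatives that refit the data. Tubb3, Dcx, Stmn2, Map2 and Gad1 were called under all of them. Rbfox3 ranged from 2.52 to 4.50 with a library left out, and the lowest value, without tamoxifen library 2, was not called (limma, adjusted p = 0.0694). Slc17a7 ranged from 2.09 to 2.25 with a library left out, was not called without either tamoxifen library, and was 1.07 after quantile normalization (limma, adjusted p = 0.0515). Snap25 turned positive with DESeq2 (0.16), edgeR (0.14) and equal totals (0.39), and ranged from -0.95 to 0.80 with a library left out, with 0.24 without control library 2. Syt1 turned negative after quantile normalization (-0.87), and ranged from -0.58 to 1.01 with a library left out, with -0.16 without tamoxifen library 2. The cause was not tested. Of the 9 genes 7 were called higher, but 6 after quantile normalization or without tamoxifen library 1 and 5 without tamoxifen library 2.

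Over all genes, 5867 were called higher and 3284 lower. A filter at 100 gave 3540 higher, with fewer genes tested. Leaving out a library gave 3073 to 6466 higher and 1906 to 3535 lower. The number called lower was 1815 with equal totals, 5276 after quantile normalization and 5228 by adjusted p alone. Of the calls 64.1% were higher, against 80.3% with equal totals and 47.2% after quantile normalization, settings that moved the median of all genes by 0.49 and -0.252 (log2). No filter moved it by 0.121.

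Signs also turned for Mgp with equal totals (0.0786), for Tuba1a with equal totals (0.26), after quantile normalization (0.42) and without tamoxifen library 1 (0.0107, range -0.44 to 0.0107 with a library left out), for Lhx6 after quantile normalization (-1.05) and without tamoxifen library 1 (-0.22, range to 0.30), for Slc17a8 after quantile normalization (-0.50) and without tamoxifen library 2 (-0.60, range to 1.34), for Meg3 without control library 1 (-0.33) or tamoxifen library 2 (-0.03, range to 0.81), and for Ptbp1 without control library 1 (-0.09) or tamoxifen library 1 (-0.185, range to 0.19). Of 927 further values of 67 named genes outside the members, 881 kept their direction and side of the threshold.

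Library numbers are shared between the groups but nothing states that they pair, and the deviations of libraries numbered 1 correlated with r = 0.0251 over 20485 genes. With a replicate block 6064 genes were called higher and 3461 lower, and it changed no call among the 9 genes.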
